A study of Bos taurus with 2 samples.

Results

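The MAP kinase cascade was examined in the *longissimus thoracis* (LT) muscle of fetal calves through 8 genes of its ERK, JNK and p38 arms, namely *MAPK3*, *MAP2K1*, *MAP2K2*, *BRAF*, *MAPK8*, *MAPK9*, *MAPK14* and *MAPK12*. The probes of a gene were those whose transcript accession belongs to its symbol in the RefSeq gene table. With this rule, 20 probes for 7 of the 8 genes were found, among 12603 genes with a symbol on the array. No probe could be assigned to *BRAF* by accession, so no value is given for it, although a probe for it may carry an identifier of another kind. The low-nutrition (LN) group were fetuses of Japanese Black cows fed 60% of the nutritional requirement during gestation, and the high-nutrition (HN) group were those of cows fed 120%. All fetuses shared 1 sire, came from male-sorted semen and were sampled at 8.5 months of gestation (day 260 ± 8.3). The study's methods give 5 LN and 6 HN cows, while its table of carcass traits has these numbers the other way round. RNA was pooled from the 4 LN fetuses of lowest bodyweight and from the 4 HN fetuses of highest bodyweight. Diet and this selection by bodyweight therefore cannot be told apart. The pools were measured on 1 one-color bovine Agilent array each. With 1 value per group there is no test and no p-value, and the pooled arrays do not measure how much single fetuses vary.

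MAP kinase cascades pass signals from growth factors and stress to the nucleus through kinases that phosphorylate each other in turn. In the ERK arm, RAF kinases such as *BRAF* activate the MAP2 kinases MEK1 (*MAP2K1*) and MEK2 (*MAP2K2*), which activate MAP kinases such as ERK1 (*MAPK3*). The JNK kinases (*MAPK8* and *MAPK9*) and the p38 kinases (*MAPK14*, the alpha form, and *MAPK12*, the gamma form found mainly in skeletal muscle) respond to stress and cytokines, and p38 also takes part in myogenic differentiation. These kinases are switched on by phosphorylation, which an array of RNA does not measure.

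The gene values of the measured cascade transcripts differed by at most 1.19-fold between the pools. A log2 LN/HN of 0.32 in either direction, the fold by which the study chose genes for its pathway analysis, was used as the threshold. None of the 7 measured genes was past it, and the share was 15.8% over all 10637 genes with a symbol and a value. The widest difference was in *MAP2K1*, with a log2 LN/HN of 0.25 (1.19-fold higher in the LN pool), followed by *MAPK3*, with a log2 LN/HN of -0.16 (1.12-fold higher in the HN pool). The other 5 genes lay between -0.096 and 0.083. There were 4 genes lower and 3 higher in the LN pool, while 50.4% of all genes were lower and 49.5% higher. The median log2 LN/HN was -0.0023 over the 7 genes and -0.0021 over all genes. The size of the difference, without its sign, had a median of 0.083 in the 7 genes and of 0.13 in all genes. A gene averaged over several probes passes the threshold less often. The share past the threshold was 22.1% of genes with 1 probe with a value, 13.9% with 2, 9.94% with 3 and 6.65% with 4, and 4 of the 7 genes had 3 such probes. Among 7 genes, a count of 0 is near these shares, so it is not read as a trait of the cascade.

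The signals were above background for nearly all probes of these genes. Of the 20 probes, 18 (90.0%) were well above background on both arrays, as marked by the scanner software, against 77.2% of all probes with a symbol. The remaining 2, one of *MAPK8* and one of *MAPK14*, were not well above background on the LN array. Of all detected probes with a symbol, 4.73% fell short in this way on the LN array and 0.75% on the HN array. None of the 20 probes carried an outlier flag. For a single probe on both arrays, the error estimates of the software corresponded to an error of 0.20 to 0.32 on the log2 LN/HN scale. Probes printed in several spots gave an SD of 0.086 for 1 spot (42 probes), or 0.17 at 95%. In 4 of the 18 probes (2 of *MAP2K1*, 1 of *MAPK3* and 1 of *MAPK8*) the difference exceeded the error of the software, against 29.9% of all probes on both arrays, and in none was it more than 2 times this error. The 95% range of a repeated spot was exceeded in 5 of the 18 probes, against 40.8% of all probes on both arrays. These errors cover the array measurement and not the variation between animals.

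**Figure D1:**
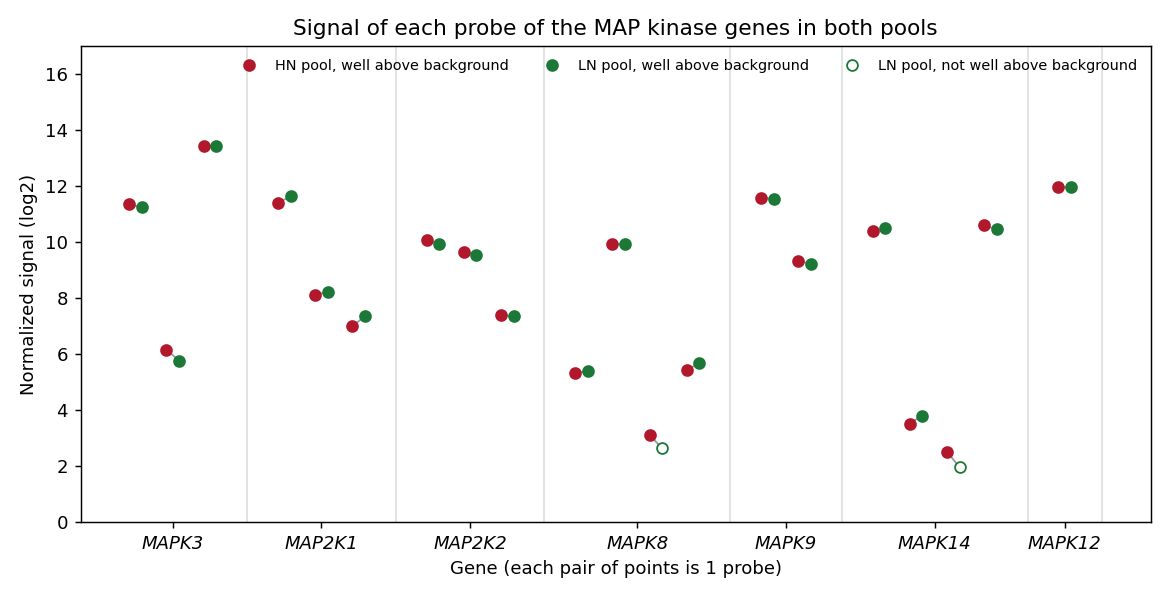
Normalized log2 signal (vertical axis) of each of the 20 probes in the HN pool (red) and the LN pool (green), grouped by gene, with 1 array per pool. The points of a pair nearly coincide for most probes, and the open points are the 2 probes not well above background on the LN array. Levels of different probes are not comparable.

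In the ERK arm, *MAP2K1*, which encodes MEK1, was higher in the LN pool with each of its 3 probes. Its first probe had 11.39 (HN) and 11.64 (LN) as log2 signals. The second went from 8.10 to 8.23 and the third from 6.996 to 7.35 in the same order. The log2 LN/HN values were 0.25, 0.13 and 0.35, with a mean of 0.25 ± 0.11 (SD over 3 probes), and the third probe alone was past the threshold. Among all genes, 24.4% had a larger difference in either direction. In the 13 other ways of processing the arrays, the value of *MAP2K1* stayed between 0.23 and 0.30.

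*MAP2K2*, which encodes the closely related MEK2, was lower in the LN pool with each of its 3 probes, by less than the error of a single probe. Its log2 signals in the HN and LN pools were 10.07 and 9.94, 9.66 and 9.55, and 7.40 and 7.35. The log2 LN/HN values of -0.13, -0.11 and -0.054 had a mean of -0.096 ± 0.037 (SD over 3 probes). The gene values of *MAP2K1* and *MAP2K2* differed by 0.34 on the log2 scale, and *MAP2K1* had the highest value of the measured cascade genes. The 3 probes of a gene share the same RNA and array and are not replicates, so this difference was not tested.

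*MAPK3*, which encodes ERK1, had 3 probes whose differences were unequal. The probe with the brightest signal had a log2 signal of 13.43 in both pools, a log2 LN/HN of 0.0041. The next went from 11.35 (HN) to 11.23 (LN), a difference of -0.11. The third probe went from 6.15 to 5.77, a log2 LN/HN of -0.38 (1.30-fold higher in the HN pool), and was past the threshold. The mean of -0.16 ± 0.20 (SD over 3 probes) was smaller than the spread between the probes. Without the third probe, *MAPK3* had a log2 LN/HN of -0.055. *MAPK3* is the gene of this cascade for which the study also designed PCR primers, on the same RefSeq transcript as the 3 probes. With them *MAPK3* was also measured by quantitative PCR in single fetuses of both groups, and those measurements were not analysed here, so the array values above do not stand for them. The primers are shown because they belong to this separate measurement of the gene, and no part of them is marked:
*MAPK3* forward primer: ccatgagaacgtcattggcatc
*MAPK3* reverse primer: tacaggtctgtctccatcaggt

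**Figure D2:**
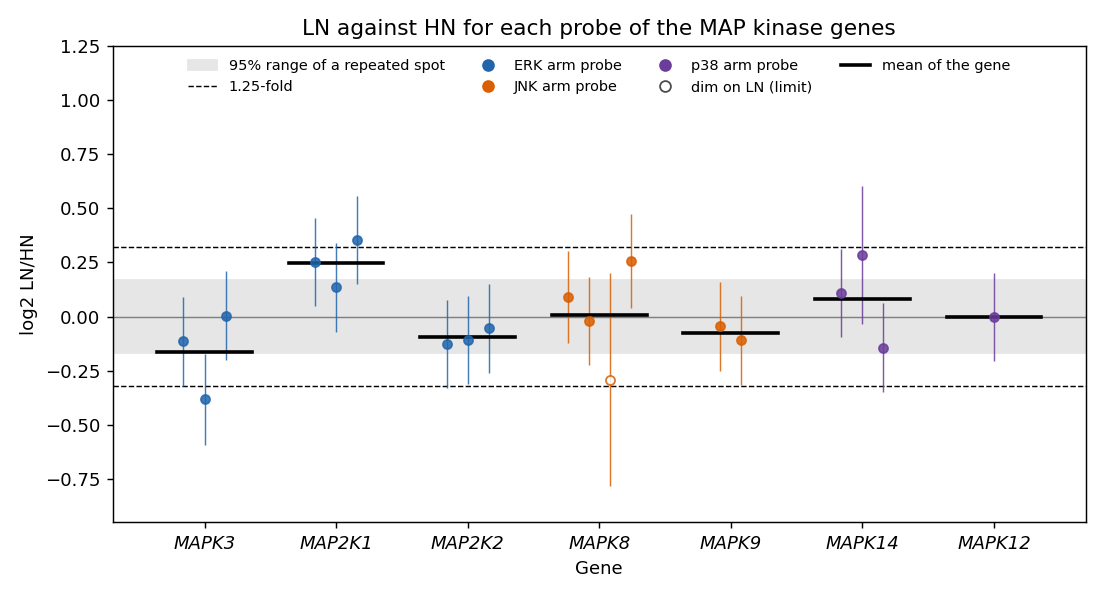
Log2 LN/HN (vertical axis) of each probe with a value, by gene, colored by arm, with bars for the error estimated by the scanner software and black lines for the mean of a gene. The means of all 7 genes lie within the dashed lines at the threshold, those of *MAP2K1* (0.25) and *MAPK3* (-0.16) farthest from 0. The grey band is the 95% range of a repeated spot, and the open point is the *MAPK8* probe dim on the LN array.

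In the JNK arm, *MAPK8* (JNK1) had a mean log2 LN/HN of 0.0089 with probes on both sides of 0. The probe with the brightest signal had 9.94 (HN) and 9.91 (LN) as log2 signals, a difference of -0.021. A pair of probes was higher in the LN pool, one going from 5.43 in the HN pool to 5.69 (0.26) and the other from 5.31 to 5.40 (0.091). The fourth probe had 3.11 in the HN pool and was not well above background in the LN pool, where the lowest signal so marked was 2.82. With this limit in place of its LN signal, its log2 LN/HN was -0.29 (1.22-fold higher in the HN pool), with an error of 0.49 by the software. Without this probe, *MAPK8* had a log2 LN/HN of 0.11. *MAPK9* (JNK2) had log2 signals of 11.58 (HN) and 11.53 (LN) with one probe, and of 9.33 and 9.22 with the other. Both were slightly lower in the LN pool, and the mean log2 LN/HN was -0.078 ± 0.046 (SD over 2 probes). The means of both genes were within the error of a single probe.

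In the p38 arm, the values were again close to 0. *MAPK12*, the p38 gamma of skeletal muscle, has 1 probe, with a log2 signal of 11.95 in both pools and a log2 LN/HN of -0.0023. *MAPK14*, p38 alpha, had a pair of bright probes with opposite signs. One went from 10.39 (HN) to 10.50 (LN) (0.11), and the other from 10.60 to 10.45 (-0.14). A dimmer probe went from 3.52 to 3.81 (0.28), with an error of 0.32 by the software. The fourth gave 2.52 with HN RNA and was not well above background in the LN pool, and it gave no fold because 2.52 is under the limit of 2.82. The mean over the 3 others was 0.083 ± 0.21 (SD over 3 probes). The mean of *MAPK14* was smaller than the spread of its probes, and the value of *MAPK12*, which has no such spread, was smaller than the error of a probe.

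Across the arms, the direction varied within each arm. Among the probes with a value, 5 were lower and 4 higher in the LN pool in the ERK arm, 4 and 2 in the JNK arm, and 2 and 2 in the p38 arm. In total 11 of the 19 probes were lower and 8 higher, against 49.7% lower and 50.1% higher of all probes with a symbol. The *MAPK8* probe dim on the LN array could only count as lower. Without it, 3 probes were lower and 2 higher in the JNK arm, and 10 and 8 of 18 in total. The shares of all probes with a symbol above background on both arrays were 48.7% and 51.2%. Past the threshold were 2 probes, one lower (*MAPK3*, -0.38) and one higher (*MAP2K1*, 0.35), against 17.3% of all probes (8.89% lower and 8.45% higher). No probe was past 2-fold, against 1.06% of all probes. The sign of 16 of the 18 probes on both arrays was the same in the scanner signals without normalization. In the log2 values normalized by the authors, which hold these 18 probes, all 18 had the same sign, and the largest difference from the values given here was 0.043. The signs of *MAPK8*, *MAPK12* and *MAPK14* depended on the processing, with ranges of -0.078 to 0.11, -0.052 to 0.050 and -0.14 to 0.20. *MAPK3* ranged from -0.18 to 0.0041, the latter with its brightest probe, while *MAP2K2* (-0.13 to -0.060) and *MAPK9* (-0.081 to -0.039) were below 0 in all 13 settings.

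**Figure D3:**
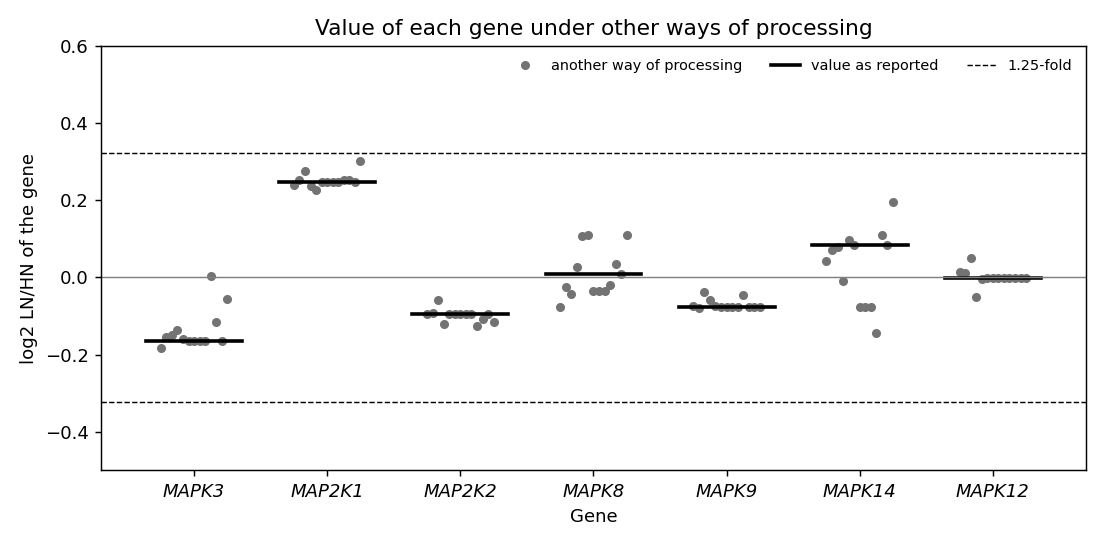
Log2 LN/HN (vertical axis) of each of the 7 genes as reported (black lines) and in the 13 other ways of processing the same arrays (grey points). No point passes the dashed lines at the threshold, and the points of *MAPK8*, *MAPK12* and *MAPK14* lie on both sides of 0, as do those of *MAPK3* through 1 setting at 0.0041.

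The rest of the pathway was described with 8 lists that hold 129 other genes, of which 97 had a value. There were 11 genes past the threshold (11.3%), 8 lower and 3 higher in the LN pool, against 15.8% of all genes (8.01% lower and 7.8% higher). *RPS6KA2*, among the 8 lower, was well above background only in the HN pool. With only probes above background on both arrays, 10 of 96 genes were past the threshold, 7 lower and 3 higher, against 14.1% of all genes. The median log2 LN/HN was -0.010 over the 97 genes. None was past 2-fold, against 0.959% of all genes. Of the 11 genes, 8 had a value from a single probe, so their difference could not be set against a spread between probes.

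Among close relatives of the cascade genes, *MAPK11* and *ARAF* were within the threshold. For *MAPK11*, the beta form of p38, the log2 signal was 4.49 with HN and 4.53 with LN RNA (0.042). The sign of *MAPK11* turned to -0.060 with scaling by the 75th percentile of each array. *ARAF*, a RAF kinase that acts at the same step as *BRAF*, had 12.75 (HN) and 12.82 (LN) as log2 signals of its 1 probe, a log2 LN/HN of 0.068. Among the other MAP kinases, 6 of 9 had a value, and *MAPK15*, an atypical MAP kinase, was barely past the threshold (0.32). It was so in 6 of the 13 other settings. All 4 of the other MAP2 kinases with a value, of 5 listed, were within the threshold.

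Upstream, 15 of 20 RAF and MAP3 kinases had a value, with a median log2 LN/HN of -0.011. Only *MAP3K8*, a kinase that activates MEK in inflammatory signaling, was past the threshold (-0.36, from a log2 signal of 4.18 to 3.82), and after the normexp background correction it was -0.077. That correction adds an offset of 50 to every signal, near the median signal of the arrays (49.1 for HN and 48.4 for LN). It therefore draws the folds of dim probes toward 0, here and below, and is no separate check on them. The list of RAS proteins, adaptors and regulators had 14 of 21 genes with a value and a median of 0.045. In it, *RASGRP3*, an exchange factor that activates RAS, was lower in the LN pool with both probes (-0.42 and -0.29, mean -0.35), and its mean was -0.16 after the same correction. For the scaffolds, which hold the kinases of a cascade together, 10 of 13 had a value, none was past the threshold, and the median was -0.073.

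Of the phosphatases and feedback inhibitors, 14 of 23 had a value, 7 of them lower and 7 higher with LN, and their median was 0.022. *DUSP10*, a phosphatase that inactivates JNK and p38, was 1.36-fold higher in the HN pool. Its 2 probes went from 9.48 to 9.04 and from 7.33 to 6.89, so both gave a log2 LN/HN of -0.44. It was past the threshold in all 13 other settings, from -0.45 to -0.37. The single detected probe of *DUSP9* gave -0.34, and this was -0.19 after the normexp background correction. Among the downstream kinases, 10 of 11 had a value, with 5 on either side of 0. *RPS6KA2*, a ribosomal S6 kinase activated by ERK, had 1 probe, with 3.28 in the HN pool and not well above background in the LN pool. With the limit of 2.82 in place of its LN signal, its log2 LN/HN was -0.47 (1.38-fold higher in the HN pool). That value depends on the limit, and after the normexp background correction it was -0.13.

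The nuclear targets, transcription factors that MAP kinases phosphorylate or induce, had a value for 24 of 27 genes, with a median log2 LN/HN of -0.048. Of these, 16 were lower (66.7%) and 8 higher with LN, against 50.4% lower and 49.5% higher of all genes. Past the threshold were 5 genes (20.8%), against 15.8% of all genes. *ATF3*, a factor induced by stress, had the largest difference of the 97 genes. Its 1 probe went from a log2 signal of 12.94 (HN) to 11.99 (LN), a log2 LN/HN of -0.95 (1.93-fold higher in the HN pool). *JUND*, a subunit of AP-1, went from 13.24 to 12.81 (-0.44, 1 probe). *ATF3* and *JUND* were past the threshold in all 13 other settings. *ELK1*, a factor phosphorylated by ERK, had a dim probe that went from 4.26 to 3.60 (-0.66). After the normexp background correction, which draws dim probes toward 0, the value was -0.059. The ETS factors *ETV5* (0.52, probes 0.66 and 0.38) and *ETV1* (0.33, 1 probe), often induced through ERK signaling, were higher in the LN pool. After the normexp background correction they were 0.31 and 0.26, both short of the threshold.

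**Figure D4:**
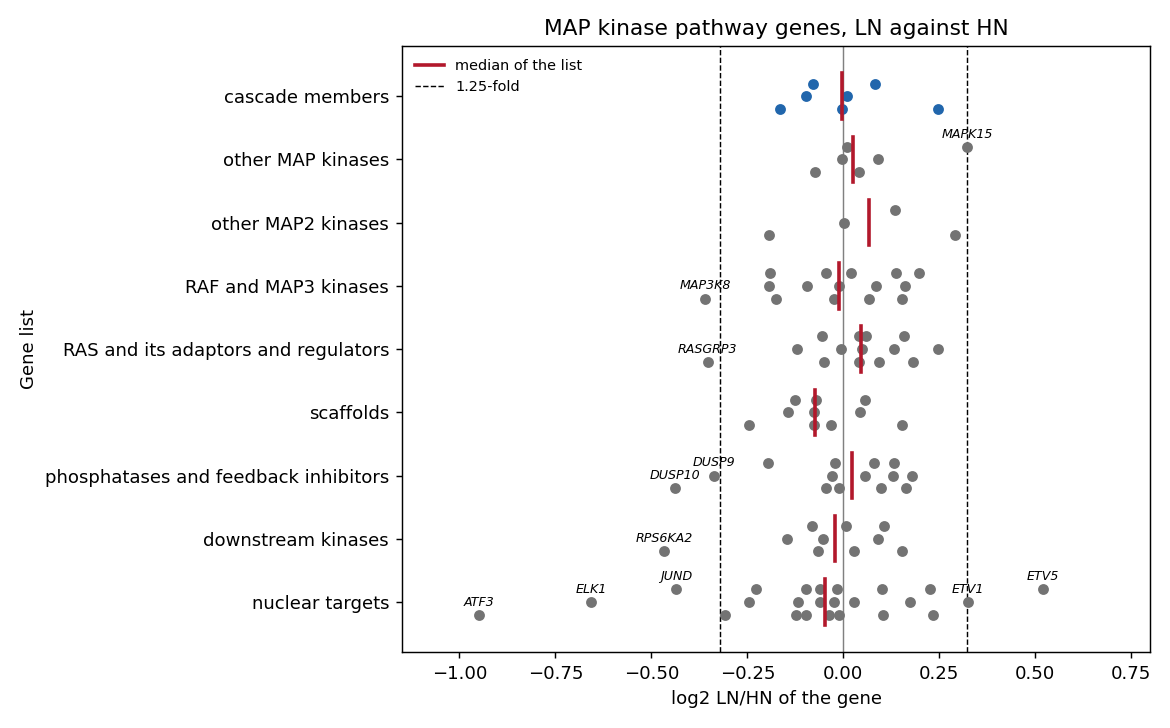
Log2 LN/HN (horizontal axis) of the 7 cascade genes (blue) and of the 97 other pathway genes with a value (grey), by list, with a red bar at the median of each list. The 11 genes past the threshold (dashed lines) are named, and the vertical offset of points within a list has no meaning.

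The muscle label was borne out by the fibre markers. Of the 14 genes on the list, 11 had a probe assigned by accession, and all 11 were detected, *ACTA1* and *CKM* among them, with a median log2 LN/HN of -0.12 and a summed log2 signal of 20.34 (HN) and 20.29 (LN). For markers of other cell types, the median log2 LN/HN was 0.29 for fibroblasts (9 of 10 higher in the LN pool, signals summing to log2 14.65 with HN and 14.93 with LN RNA) and 1.04 for neutrophils (7 of 9 higher, 9.36 and 10.29). They were -0.21 for endothelial cells (8 of 10 lower, 13.01 and 12.73), -0.27 for macrophages (7 of 8 lower, 12.65 and 12.32) and -0.30 for smooth muscle and pericytes (5 of 7 lower, 13.34 and 13.01). For adipocytes, erythroid cells and Schwann cells the medians were 0.20, -0.094 and 0.030. Apart from *MAPK12*, found mainly in skeletal muscle, these kinases are expressed in most cell types. The part of cell composition in the values of the cascade genes was not tested. In a bulk sample, fewer cells of a type and less RNA per cell cannot be told apart.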

How the data were processed

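The authors extracted the spots of 2 one-color arrays, 1 per pooled sample, with Agilent Feature Extraction 11.0.1.1, and deposited the intensities after background correction, each array on its own scale. A second table deposited by the authors holds log2 values from GeneSpring GX after quantile normalization (scale judged from the values, not stated). Here, log2 intensities of the 43803 non-control spots were normalized by the quantile method, as the study's methods state, with limma 3.58.1 in R 4.3.3. Python 3.11.15 with numpy 2.4.6, pandas 2.3.3 and matplotlib 3.10.9 served for the rest. Outlier flags took out 13 spots, and repeat spots were averaged per probe. Detection required a signal well above background on 1 array or both. For a probe dim on one array, the lowest signal marked as above background there (log2 2.27 for HN, 2.82 for LN) stood in unless its own was higher, and no fold was given where the bright side did not exceed it. Genes were given the mean log2 LN/HN of all their probes with a fold. Symbols came from the RefSeq gene table of assembly ARS-UCD2.0 by accession (26742 probes, 12603 symbols). The table gave names only, since the array design refers to an older build. The software marked 74.5% of spots as well above background on HN and 70.9% on LN, and the number of arrays limits the precision.

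The members and gene lists were chosen with earlier results of these data known. The lists were written by hand, and the genes named are all members, the near relatives *MAPK11* and *ARAF*, and of each pathway list at most the 3 highest and 3 lowest values past the threshold of 0.32 on the log2 scale. A pair of other relatives named by this rule is not reported here. The alternatives were 3 other normalizations, the normexp background correction (offset 50, on the median spot signals because the files hold no mean signals), the authors' values, 4 treatments of dim probes, 2 other gene summaries and flagged spots kept. A further one, chosen after seeing the data, left out the probe farthest from the median of its gene. The steps were tested on simulated data with planted changes larger than any difference of the cascade genes, so that test does not cover differences as small as theirs.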

Additional observations from a re-analysis of the deposited data

How the results depend on the processing

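All 13 alternatives gave 0 cascade genes past the threshold, a median log2 LN/HN of the 7 genes between -0.076 and -0.0023, and 4 to 6 genes lower in the LN pool. *MAPK14* moved by more than the spread of its probes with its brightest probe (-0.14). The count of pathway genes past the threshold moved most, to 3 after the normexp background correction, when 3.65% of all genes passed, and to 17 of 105 when every probe positive and significant on either array was used, when 24.3% of all genes passed. Its split of 8 lower and 3 higher was 10 and 1 both with the 75th percentile of each array subtracted and in the authors' values, while all 11 genes kept their sign in every alternative that gave them a value. The 75th percentile scaling moved the median of all genes from -0.0021 to -0.036. Leaving out a replicate and a slide block could not be fitted, with 1 array per group on 1 slide. No paired analysis was possible because each group has 1 array. Dim probes carry the largest errors, and the pooled arrays do not measure variation between fetuses.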

Other observations

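Some pathway genes had probes that disagreed, and they are named here after their values were seen. *MAP2K4*, a MAP2 kinase that activates JNK and p38, had a mean log2 LN/HN of 0.29 from 3 probes. A pair of them, with log2 signals of 9.17 and 10.54 in the HN pool, gave -0.065 and 0.037, whereas the dimmest went from 4.30 to 5.20, a log2 LN/HN of 0.90. With the brightest probe alone the gene had a value of 0.037, and after the normexp background correction 0.064. *MRAS*, a RAS protein of muscle, had 5 probes, of which the dimmest (2.89 to 3.59) gave 0.70 and the others -0.097 to 0.18. The 2 probes of *DUSP4*, a phosphatase induced by ERK, gave -0.49 and 0.43. *JUN*, the AP-1 subunit phosphorylated by JNK, was just short of the threshold, and its 3 probes were alike (-0.35 to -0.27, mean -0.31).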
